A study of Mus musculus with 4 samples.

Results

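The 10 genes followed here are ones that cells switch on soon after a stimulus, measured in mouse marrow cultures: the nuclear receptor genes Nr4a1, Nr4a2 and Nr4a3, the AP-1 genes Fos, Fosb, Jun and Junb, the zinc finger genes Egr1 and Egr2, and Ier3. They were taken by gene symbol from the array annotation, and all 10 were found among 19938 measured genes, each with 1 probe set. The cultures were bone marrow cells of mice labelled Bach1 (-/-) or Bach1 (+/+), both on a B6 background. They were grown for 6 days in medium with 20 ng/ml GM-CSF, with which marrow gives rise to macrophages and dendritic-type cells. They then received 40 µM heme (the labels write the unit as µm) or its vehicle, a salt solution with ammonium hydroxide. After 24 hours the floating cells were discarded, and the adherent cells were scraped off for RNA.

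The 4 groups were labelled knockout with heme, labelled knockout with vehicle, wild type with heme and wild type with vehicle. Each held 1 array, so replicate error is unknown and p-values are not given. The values are linear signals after RMA, with medians between 30.4 and 31.4 on the 4 arrays, and Pearson's r across probe sets was 0.975 to 0.981 for the pairs of arrays on the log2 scale. The number of arrays limits the precision. A gene was taken as at level where its signal was at least 30.96, the overall median, on the brighter array of the pair, and was called at a 2-fold difference or more. The robust SD of the log2 differences of all genes at level, between 0.25 and 0.28 in the comparisons of single arrays, serves as the yardstick for small differences, although it mixes noise with real differences. The Bach1 probe set read 204 and 211 on the labelled knockout arrays and 264 and 212 on the wild-type arrays, and whether its probes fall in the deleted part is not stated, so it checks nothing about the labels. Hmox1, the heme-degrading enzyme gene that Bach1 is known to repress, read 10330 with heme and 9047 with vehicle in the labelled knockout, against 9881 and 1827 in wild type. Spic, a transcription factor gene named in the series' title, read 679 and 298 in the labelled knockout with heme and vehicle, against 429 and 17.0 in wild type. At both genes the wild-type vehicle array alone was low.

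Immediate early genes need no new protein synthesis for their induction: kinases and calcium signals act on factors already bound at their promoters, such as CREB at cAMP response elements and serum response factor at CArG boxes. Their products are mostly transcription factors that act in turn on slower genes, and their transcripts are usually short-lived, so a late sample records a sustained level and not the first wave. In macrophages they follow stimuli such as bacterial products, growth factors and adhesion. Fos and Jun proteins pair as AP-1, which binds the sequence TGANTCA. Bach1 pairs with small Maf proteins and binds the longer Maf recognition element, which contains the AP-1 letters, and heme releases it from DNA.

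Promoter sequence was available for 9 of the 10 genes, in 13 windows of 300 bases that ran from 250 before to 50 after an annotated start (RefSeq, GRCm38.p6). Shown are the windows of the 3 genes that reached 2-fold between genotypes, as described further on. Each reads 5′ to 3′ on the strand of its gene. Capitals mark the cAMP response element core TGACG on either strand, which reads CGTCA on the other strand, and the CArG box. Nr4a3 lies at chr4:48045055-48045354 on the plus strand, Fosb at chr7:19309996-19310295 on the minus strand, and Egr2 at chr10:67537619-67537918 on the plus strand, 1 of 5 annotated starts of that gene.
Nr4a3: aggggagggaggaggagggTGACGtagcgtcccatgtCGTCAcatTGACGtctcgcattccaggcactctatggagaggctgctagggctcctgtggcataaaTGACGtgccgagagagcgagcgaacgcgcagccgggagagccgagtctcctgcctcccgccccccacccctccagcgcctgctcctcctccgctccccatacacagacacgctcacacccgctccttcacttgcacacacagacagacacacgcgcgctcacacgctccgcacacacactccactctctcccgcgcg
Fosb: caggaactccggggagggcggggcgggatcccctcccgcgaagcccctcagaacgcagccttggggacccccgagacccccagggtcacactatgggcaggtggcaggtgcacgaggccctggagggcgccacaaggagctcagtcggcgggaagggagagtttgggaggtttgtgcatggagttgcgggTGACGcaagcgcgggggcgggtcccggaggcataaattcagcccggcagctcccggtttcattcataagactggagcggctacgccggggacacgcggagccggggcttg
Egr2: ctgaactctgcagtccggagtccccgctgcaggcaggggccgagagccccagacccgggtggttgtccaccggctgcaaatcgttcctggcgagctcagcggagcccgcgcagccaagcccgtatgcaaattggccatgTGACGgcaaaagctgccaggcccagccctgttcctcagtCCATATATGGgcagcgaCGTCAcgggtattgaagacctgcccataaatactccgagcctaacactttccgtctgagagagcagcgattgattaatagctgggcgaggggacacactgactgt

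The Nr4a3 window held 4 cores, which began at bases -231, -213, -205 and -147 from the start. The Fosb window held 1, at -60, and the Egr2 window held 2, at -111 and -55, with the CArG box between them at -72. Nr4a1 and Nr4a2 also held 4 cores each, Fos held 2 and Junb 1, while Jun and Ier3 held none. Of the 13 windows, 9 had a core, against 20.8% of 32851 windows of all genes. These 9 include 3 Egr2 windows that overlap and show the same 2 cores, and counted by gene 7 of the 9 members held a core. The Egr2 windows at chr10:67535249-67535548 and chr10:67537316-67537615 held no core. Of the 5 Egr2 windows, 4 held a CArG box, against 1.63% of all windows; 3 of these 4 overlap and show the same box. The Egr site GCGNGGGCG was found in 3 members, Nr4a1, Nr4a2 and Fosb, against 5.55% of all windows. No member window held the full cAMP response element TGACGTCA (1.79% of all windows), which would also contain a core, the AP-1 letters TGANTCA (7.81%), the Maf recognition element (0.0061%) or the Nr4a site AAAGGTCA (1.51%). All were searched on both strands, and the member windows are 54.0% to 81.7% G and C. These matches describe letters in short windows and are no binding sites.

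**Figure D1:**
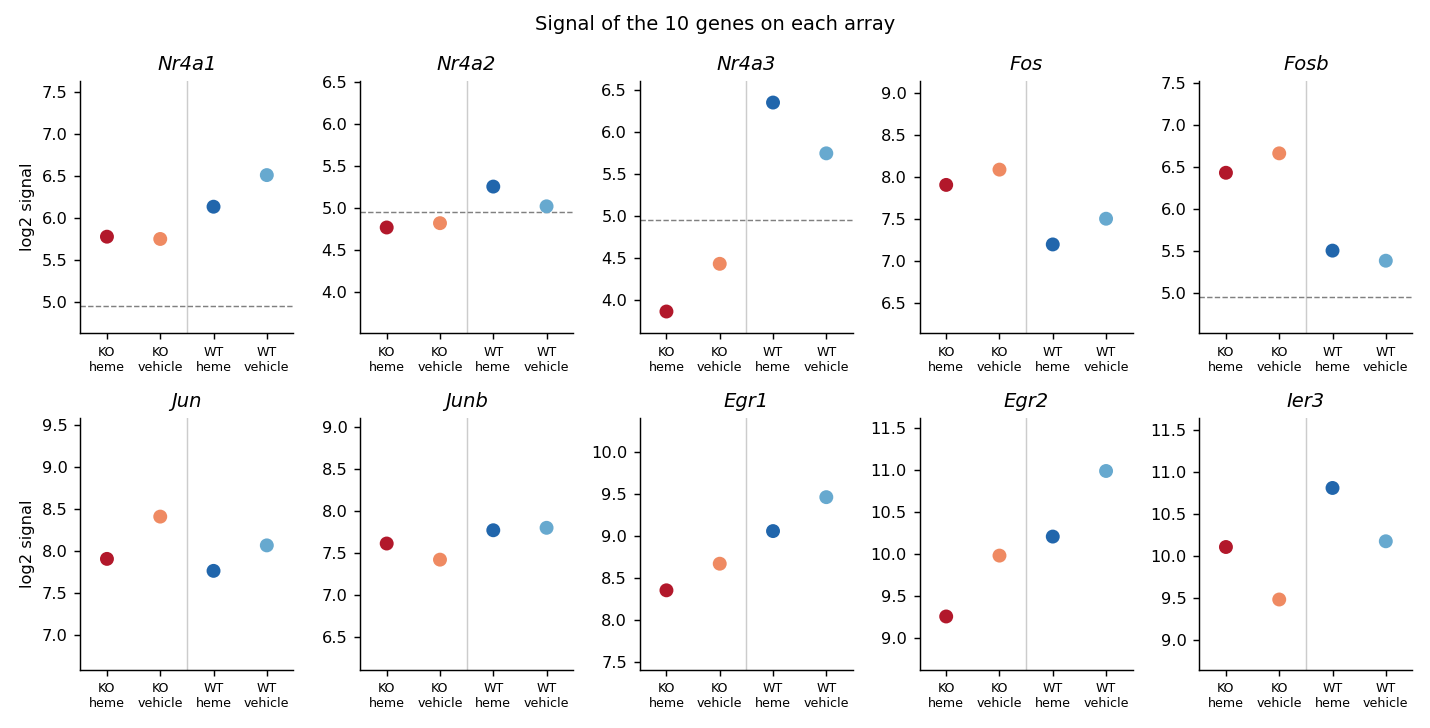
Log2 signal of each gene on the 4 arrays, 1 point per array, labelled Bach1 knockout (KO) left of the grey line and wild type (WT) right of it; every panel spans 3 log2 units, and the dashed line is the median of all values (4.95). Both KO points lie below both WT points for 7 genes and above them for Fos and Fosb.

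Most of these genes separated by genotype label. On both labelled knockout arrays the 3 Nr4a receptors, Egr1, Egr2, Ier3 and Junb read lower than on both wild-type arrays, and Fos and Fosb read higher. Among the 10, Jun alone overlapped between genotypes. The 9 separated members compare with 35% of 11155 genes at level. The members were chosen with earlier results of these data known, so this share and those below describe them and test nothing. Nr4a3 had the largest difference among the members, 5.61-fold lower in the labelled knockout with heme. The 7 of 10 members below without overlap stand beside 18% of these genes, and the 2 above beside 17.1%. The heme and vehicle arrays of a genotype are not replicates of each other. With 1 array per group, genotype cannot be told apart from other differences between the mice or cultures.

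Nr4a3 encodes an orphan nuclear receptor that acts without a known ligand, and in mouse dendritic cells it is needed for Ccr7-dependent migration. It read 14.5 with heme and 21.5 with vehicle in the labelled knockout, against 81.3 with heme and 53.5 with vehicle in wild type. From the lowest to the highest array, each neighbouring pair differed by more than the robust SD. Both labelled knockout values lay under the median of all values, and how far they lie above background is unknown. With heme, the log2 difference of -2.49 ranked 3 from the lowest among 10790 genes at level, and it was the one member of 10 called lower, where 0.973% of all genes were. With vehicle, Nr4a3 was 2.49-fold lower (log2 difference -1.32), rank 65 of 10859. With 32 added to every signal, which shrinks differences between dim values, Nr4a3 was 2.44-fold lower with heme and 1.60-fold lower with vehicle.

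The other receptors of the family differed less. Nr4a1, also called Nur77, is induced by antigen receptor and inflammatory signals. It read 55.0 and 54.0 in the labelled knockout with heme and vehicle, against 70.4 and 91.4 in wild type, so that it was 1.28-fold lower with heme and 1.69-fold lower with vehicle. Nr4a2, or Nurr1, is best known for its role in dopamine neurons. It read 27.2 and 28.2 in the labelled knockout with heme and vehicle, against 38.2 and 32.4 in wild type. Its difference with vehicle, -0.20 on the log2 scale, was within the robust SD, and that with heme, -0.49, was not. Nr4a2 reached the level on the wild-type arrays alone. The receptors Nr4a1 and Nr4a2 can pair with RXR. Of its 3 genes, 0 were called in any comparison, where 0.452% to 1.2% of all genes at level were called per direction. Among those at level, the genotype differences were -0.14 with heme and -0.57 with vehicle at Rxra, and 0.20 and -0.08 at Rxrb.

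Egr1 and Egr2 were lower in the labelled knockout by like amounts in heme and in vehicle. Egr2, a zinc finger factor required for hindbrain patterning and myelination and also expressed in macrophages, read 610 with heme and 1008 with vehicle in the labelled knockout, against 1179 and 2025 in wild type. It was 1.93-fold lower with heme and 2.01-fold lower with vehicle, the second just past the 2-fold line. After quantile normalization applied again (-0.95), lowess centring (-0.94) or with 32 added (-0.98), its log2 difference in vehicle fell short of 2-fold. Egr1, which takes part in growth and differentiation responses, read 326 and 406 in the labelled knockout with heme and vehicle, against 531 and 703 in wild type, 1.63-fold and 1.73-fold lower. In both pairs of arrays the genes stood at 2.8 to 3.8 robust SDs below 0. Ier3, an early gene that modulates cell death and NF-kB signalling, read 1107 and 718 in the labelled knockout with heme and vehicle, against 1801 and 1160 in wild type. It was 1.63-fold and 1.62-fold lower, and its knockout heme value stood just under its wild-type vehicle value.

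The Fos genes stood on the opposite side. Fosb, a partner of Jun proteins whose stable splice form accumulates in chronically stimulated neurons, read 86.6 with heme and 102 with vehicle in the labelled knockout, against 45.6 and 41.9 in wild type. It was 1.90-fold higher with heme and 2.43-fold higher with vehicle, where it ranked 21 from the highest of 10859 genes. With 32 added, these were 1.53-fold and 1.81-fold. Fos, the classical early gene of this family, read 240 and 273 in the labelled knockout with heme and vehicle, against 147 and 182 in wild type, log2 differences of 0.71 and 0.58. Of their partners, Junb lay below wild type. It read 197 and 172 in the labelled knockout with heme and vehicle, against 219 and 224 in wild type, a difference within the robust SD with heme (-0.16) and beyond it with vehicle (-0.38). Jun read 239 and 339 in the labelled knockout with heme and vehicle, against 217 and 268 in wild type, and its knockout heme value lay between both wild-type values.

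**Figure D2:**
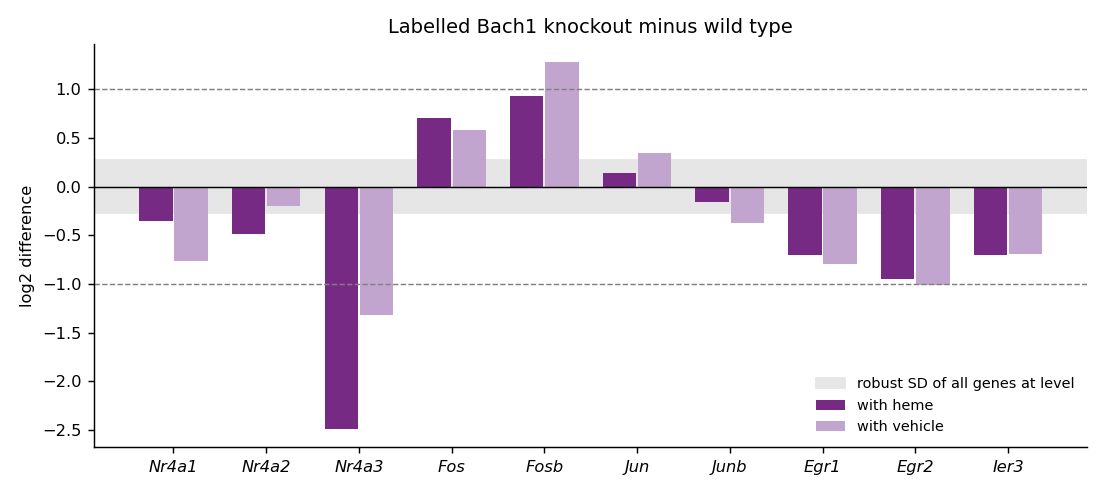
Log2 difference of each gene, labelled Bach1 knockout minus wild type, with heme (dark bars) and with vehicle (light bars), 1 array against 1; the grey band is the larger robust SD of all genes at level and the dashed lines mark 2-fold. Fos, Fosb and Jun lie above 0 in both pairs and the other 7 genes below it, with Nr4a3 at -2.49 and -1.32.

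In vehicle, 2 of 10 members were called lower (Nr4a3 and Egr2), against 1.14% of 10859 genes at level, and 1 was called higher (Fosb), against 0.525%. With heme, 0 were called higher, against 0.519%. At 1.5-fold, 4 members were lower with heme (Nr4a3, Egr1, Egr2 and Ier3), where 3.43% of all genes were, and 2 were higher (Fos and Fosb), where 3.38% were. With vehicle, 5 were lower at 1.5-fold (the same 4 and Nr4a1), against 4.31% of all genes, and Fosb alone was higher, against 3.25%. The median of the 10 members was -0.42 with heme and -0.54 with vehicle, against 0.01 and -0.02 over all genes at level. The plot of both distributions shows where each member falls.

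**Figure D3:**
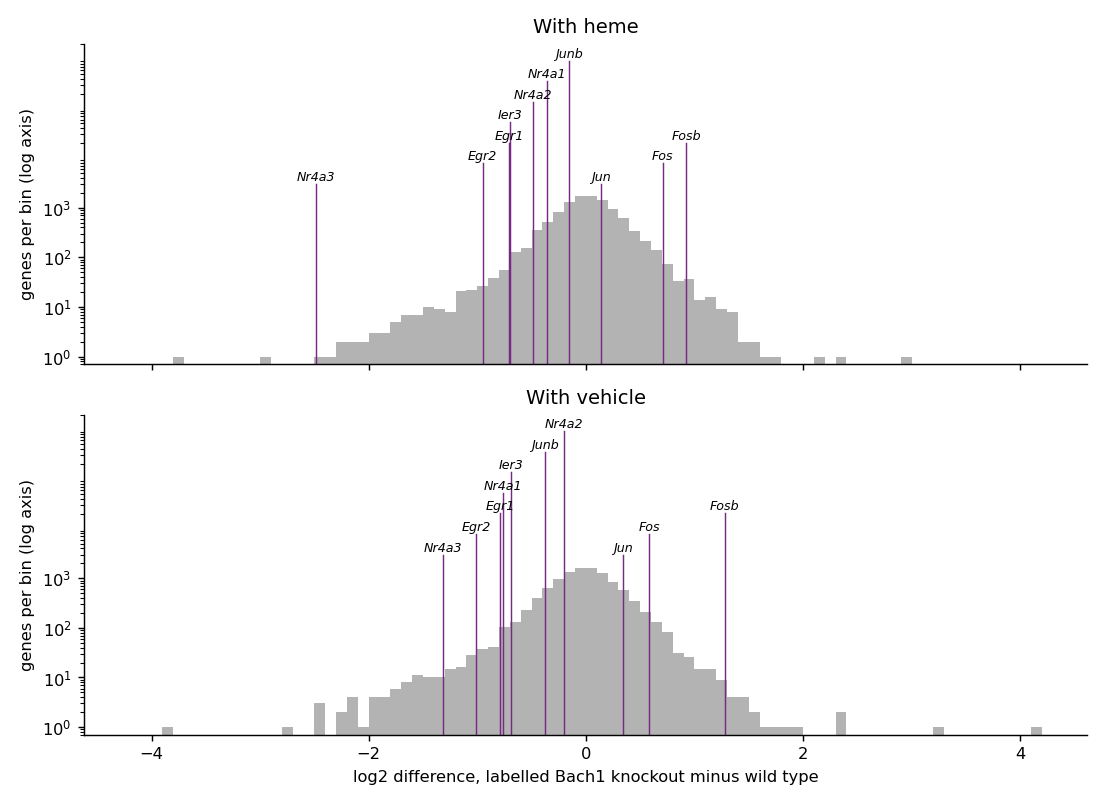
Number of genes at level per bin of 0.1 log2 units (log axis) against the difference labelled Bach1 knockout minus wild type, with heme (top) and vehicle (bottom); purple lines mark the members, and their heights serve only to separate the names. Nr4a3 lies in the far lower tail with heme, and Fosb near the upper end of the distribution in vehicle.

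Of the 9 separated members, 5 kept a gap between the genotypes larger than 0.26, the mean robust SD of both knockout comparisons: Nr4a3, Egr1 and Nr4a1 below, where 3.05% of genes at level did, and Fosb and Fos above, where 2.56% did. The smallest gaps were those of Ier3 (0.07), Junb (0.16), Nr4a2 (0.20) and Egr2 (0.23). At Egr2 and Ier3, heme and vehicle also differed within each genotype.

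The comparison of heme with vehicle asks how the same genes stood after 24 hours of heme. The differences were smaller than those between genotypes at most members, and 0 of 10 members were called at 2-fold in the labelled knockout or in wild type. Over all genes at level, 1.2% were called higher and 0.452% lower with heme in the labelled knockout, and 1.17% and 0.891% in wild type. At 1.5-fold, 1 member was higher with heme in the labelled knockout (Ier3), against 5.03% of all genes, and 1 was lower (Egr2), against 3.07%. In wild type, 2 were higher (Ier3 and Nr4a3), against 4.99%, and 1 was lower (Egr2), against 4.73%. In the labelled knockout comparison 8 of the 10 members were at level, all but Nr4a2 and Nr4a3. Egr1, Egr2, Fos and Jun were lower with heme in both genotypes, as were 29.5% of 11155 genes, and Ier3 was higher in both, as were 30.7%.

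Egr2 was 1.65-fold lower with heme in the labelled knockout (610 with heme, 1008 with vehicle) and 1.72-fold lower in wild type (1179 with heme, 2025 with vehicle). Its log2 differences of -0.72 and -0.78 ranked 170 of 10843 and 211 of 10772 from the lowest. Egr2 was lowest with heme in the labelled knockout and highest with vehicle in wild type, and the 2 arrays between them differed by less than the robust SD. Ier3 was 1.54-fold higher with heme in the labelled knockout (1107 with heme, 718 with vehicle) and 1.55-fold higher in wild type (1801 with heme, 1160 with vehicle). Egr1 was lower with heme by 0.32 on the log2 scale in the labelled knockout and by 0.40 in wild type, and Jun by 0.50 and 0.30. Jun was the only member of the 10 for which both heme arrays (239 and 217) lay below both vehicle arrays (339 and 268), a pattern shown by 19.5% of all genes at level. Fos differed with heme by -0.18 in the labelled knockout, within the robust SD, and by -0.31 in wild type.

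Nr4a3 differed with heme in opposite directions. It was lower with heme in the labelled knockout (14.5 with heme, 21.5 with vehicle, log2 difference -0.57), with both arrays under the level and within the 4.71 to 27.9 spanned by the B, T and NK cell markers, and higher in wild type (81.3 with heme, 53.5 with vehicle, log2 difference 0.60). The response in the labelled knockout minus that in wild type was -1.17, and Nr4a3 was the 1 member of 10 called lower on this measure, where 0.879% of 11155 genes were. With 32 added to each signal it was -0.61, and the response in the labelled knockout was -0.20, within the robust SD. For Egr1, Egr2 and Ier3 the responses of both genotypes lay within 0.09 of each other on the log2 scale. Nr4a1 was at 0.03 in the labelled knockout and at -0.38 in wild type.

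**Figure D4:**
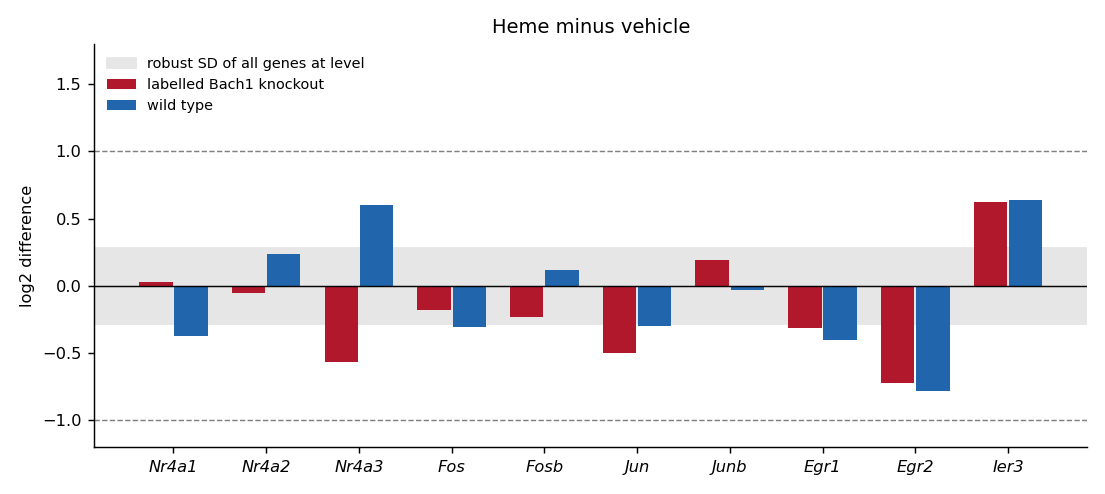
Log2 difference of each gene, heme minus vehicle, in the labelled Bach1 knockout (red) and in wild type (blue), 1 array against 1; the grey band is the larger robust SD of all genes at level and the dashed lines mark 2-fold. No bar reaches 2-fold; Egr2 and Ier3 have bars of nearly equal length in both genotypes, while those of Nr4a3 point in opposite directions.

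Other early genes were compared through lists chosen with earlier results of these data known. Of 34 further immediate early genes, 31 were at level with heme and 32 with vehicle. In the labelled knockout with heme 4 were called lower than in wild type: Errfi1, a feedback inhibitor of the EGF receptor (118 in the labelled knockout, 406 in wild type), Phlda1 (-1.37), the RNA-binding protein gene Zfp36l1 (-1.19) and Arc (-1.06), on the log2 scale. In the same pair 0 were called higher, and over all genes at level 0.973% were called lower and 0.519% higher. With vehicle, Errfi1 (-1.58) and Zfp36l1 (-1.07) were called lower and Id3, an inhibitor of DNA binding, higher (37.2 in the labelled knockout, 15.5 in wild type), beside 1.14% lower and 0.525% higher over all genes. The list medians were -0.13 with heme and -0.07 with vehicle. Of its 33 members at level on any array, 12 lay below without overlap between genotypes, beside 18% of all genes at level, and 3 above, beside 17.1%. Arc and Id3 were also called lower on the difference between heme responses, at -1.31 and -1.73, beside 0.879% of all genes. Arc was under the level in the labelled knockout with heme (28.3), an array that both of its calls use. Id3 was called lower with heme in the labelled knockout, at -1.53, beside 0.452%. Id3 reached the level only on the labelled knockout array with vehicle, and all its calls rest on that array.

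Among 10 other AP-1 and related genes, 0 were called between genotypes, and Batf2 (0.38 with heme, 0.67 with vehicle) and Batf3 (-0.31 and -0.54) had the largest differences in vehicle. Fosl1, which encodes the Fos relative FRA-1, was called higher with heme in wild type (69.6 with heme, 28.3 with vehicle), beside 1.17% of all genes. It read 65.8 with heme and 37.6 with vehicle in the labelled knockout, below the 2-fold line. Egr3, a close relative of Egr2, read 73.2 and 101 in the labelled knockout with heme and vehicle, against 126 and 142 in wild type, and 0 of the 4 genes of its list were called. Of 12 MAP kinase feedback genes 9 were at level and 0 were called. The phosphatase gene Dusp10 had the largest genotype difference in vehicle (0.75), and with heme in the labelled knockout it fell just short of 2-fold (42.1 with heme, 84.2 with vehicle). Of the 12 CREB regulators and targets, Rgs2, a G protein regulator, was called higher in the labelled knockout with heme (701, against 274 in wild type). Over all genes at level 0.519% were. In the same pair Sik1, a kinase that restrains CREB coactivators, stood at 0.94. The 6 serum response factor and ternary complex factor genes had 0 calls. Srf itself read 120 and 131 in the labelled knockout with heme and vehicle, against 95.9 and 149 in wild type. Over all genes at level, 0.452% to 1.2% were called per direction in each comparison, so 0 calls in lists this small say little.

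Of the 9 NF-kB early feedback genes, 4 were called higher with heme in wild type, where 1.17% of all genes at level were: the chemokine gene Cxcl2 (2.14), Nfkbie (1.11), Tnfaip3, which encodes the inhibitor A20 (1.10), and Nfkbia (1.01). In the labelled knockout Il1b alone was called higher (1.12), where 1.2% of all genes were. The list medians were 0.38 in the labelled knockout and 0.98 in wild type, against -0.21 and -0.17 for the 10 members; the difference between the lists was not tested. Between genotypes with heme, Tnfaip3 (-1.22) and Tnf (-1.05) were called lower in the labelled knockout, where 0.973% of all genes were. Nfkbid and Nfkbiz were called in none of these comparisons. On the difference between heme responses Cxcl2 was called lower, beside 0.879% of all genes. The comparisons of heme responses and of genotypes share arrays, so these values are not independent of each other.

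Of the members, 5 spanned 2-fold or more over the 4 arrays, and for each the 5 genes with the nearest profile were found among 10482 named genes at level, as the Euclidean distance between log2 profiles centred on their own mean. Nr4a3 was nearest to Cish, an inhibitor of STAT5 signalling (distance 0.46), which read 108 and 122 in the labelled knockout with heme and vehicle, against 402 and 280 in wild type. Next came the decoy interleukin-1 receptor gene Il1r2 (0.51), Errfi1 (0.55), Hemk1 (0.57) and Jaml (0.57). Fosb was nearest to the lipid droplet gene Hilpda (0.14), which read 339 and 437 in the labelled knockout with heme and vehicle, against 204 and 172 in wild type. After it came the lipid phosphatase gene Plpp3 (0.17), Rab4a (0.20), the potassium channel gene Kcnj2 (0.23) and Tmem140 (0.25). Egr1 was nearest to Klk1b5 (0.07), Bcl2a1c (0.09), Chn2 (0.10), Ercc6l (0.11) and Vcl, the gene of vinculin (0.11). Egr2 was nearest to Plxdc2 (0.25), Ms4a4a, Kdr, Klk1b1 and Ptges3l, and Ier3 to the G protein-coupled receptor gene Gpr132 (0.10), Sinhcaf, Pglyrp1, Slc2a6 and Upp1. At level here means on the brightest of the 4 arrays. Ms4a4a, Kdr, Ptges3l and Ercc6l reached the level on the wild-type vehicle array alone, and Rab4a and Kcnj2 on the labelled knockout arrays alone. Much of these profiles thus rests on dim values. With 4 arrays such nearness is a description, and the members of each set share the same arrays.

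**Figure D5:**
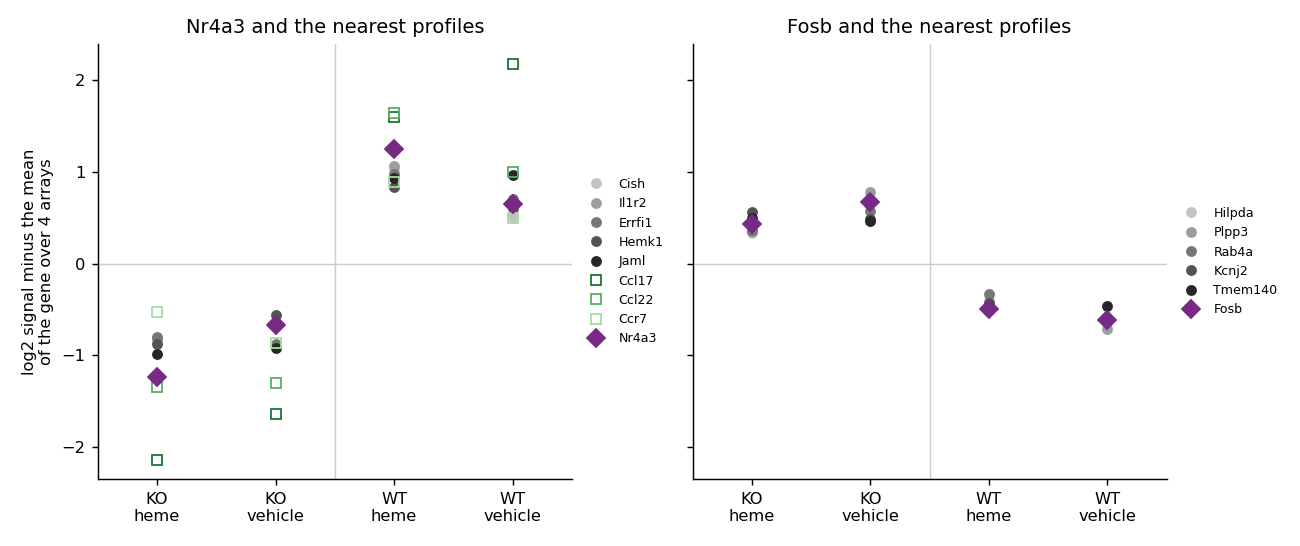
Log2 signal minus the mean of each gene over the 4 arrays, 1 point per array, labelled Bach1 knockout (KO) left of the grey line and wild type (WT) right of it, for Nr4a3 (left panel) and Fosb (right panel) as diamonds with their 5 nearest genes as grey circles. Green squares are the dendritic cell markers Ccl17, Ccl22 and Ccr7, chosen after their values were seen. Like Nr4a3 they lie below 0 on both KO arrays and above it on both WT arrays, which restates their genotype difference. With heme, Ccl17 was lower in WT (-0.58), where Nr4a3 was higher (0.60). Ccr7 was higher with heme in KO (0.34), where Nr4a3 was lower (-0.57). Their other heme responses had the sign of Nr4a3. Of the 13 markers of that list, Il12b, Cd40, Cd80 and Marcksl1 overlap between genotypes.

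Many dendritic cell markers, though not all, were lower in the labelled knockout, as Nr4a3 was. Summed over 13 measured markers of mature and migratory dendritic cells, the signal was 1253 with heme and 1104 with vehicle in the labelled knockout, against 3536 and 3293 in wild type. The chemokine genes Ccl17 and Ccl22 carried much of this: without them the sums were 1091 with heme and 908 with vehicle in the labelled knockout, against 1832 and 1335 in wild type. With heme, 5 of the 13 were called lower in the labelled knockout (Ccl17, Ccl22, Ccr7, Cd83 and Socs2), beside 0.973% of all genes at level. With vehicle 4 were (Ccl17, Ccl22, Ccr7 and Cd86), beside 1.14%. Without overlap, 9 of 13 lay below, beside 18% of all genes, while Il12b, Cd40, Cd80 and Marcksl1 overlapped. Il12b and Cd40 read higher in the labelled knockout with vehicle, by 0.37 and 0.28 on the log2 scale. Marcksl1 was called higher with heme in wild type (1.19), and Cd86 on the difference between heme responses (1.04), each beside 1.17% of all genes. The chemokine receptor gene Ccr7 read 44.5 and 35.2 in the labelled knockout with heme and vehicle, against 119 and 90.7 in wild type. Over 12 general dendritic cell markers, most of whose signal comes from MHC class II genes, the sums were 3028 and 3686 in the labelled knockout with heme and vehicle, against 8531 and 10886 in wild type, and 6 of the 8 at level were called lower in both pairs: Cd74, H2-Aa, H2-Ab1, H2-Eb1, Ciita and Kmo. Kmo reached the level on the wild-type arrays alone (50.1 with heme, 56.5 with vehicle), and read 15.5 and 13.2 in the labelled knockout. Of the general markers, Itgax overlapped between genotypes, and Flt3, Zbtb46, Dpp4 and Cd209a reached the level on no array. In such cultures fewer cells of a type and less RNA per cell cannot be told apart. The part of the dendritic cell markers in the difference of Nr4a3 or the other members was not tested.

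Macrophage markers split. Their sum was 20520 with heme and 20816 with vehicle in the labelled knockout, against 19454 and 21697 in wild type, and Lyz2 and Cd68 made up most of it. Without these, the sums were 6183 and 5890 in the labelled knockout with heme and vehicle, against 6124 and 7522 in wild type. Of the 12, 4 were called lower in the labelled knockout with vehicle, beside 1.14% of all genes: C1qa (-2.80), C1qc (-2.42), C1qb (-2.00) and Fcgr1 (-1.48). With heme, C1qc alone was (-1.52), beside 0.973%. The same 4 were called lower with heme in wild type, beside 0.891% of all genes. At each of these 4 markers the wild-type vehicle array was the highest. The members were mixed in this: Nr4a1, Egr1, Egr2 and, by a small margin, Junb were also highest there. Nr4a2, Nr4a3 and Ier3 were highest with heme in wild type, and Fos, Fosb and Jun with vehicle in the labelled knockout. The share of all genes that were highest on a given array was not computed. C1qa, C1qb and Fcgr1 were called higher on the difference between heme responses, beside 1.17% of all genes. The part of these markers in the values of the members was not tested.

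Neutrophil markers summed to 11892 and 9370 in the labelled knockout with heme and vehicle, against 14551 and 11173 in wild type. These sums were higher with heme in both genotypes, as Ier3 was, and S100a8 and S100a9 made up most of them. Mmp8 hardly differed with heme (0.02 in the labelled knockout), and Mpo (-0.19) and Prtn3 (-0.06) read lower with heme there. Between genotypes, 4 of the 13 at level lay above wild type without overlap, beside 17.1% of all genes, and 9 overlapped. The part of these markers in the difference of Ier3 was not tested. With heme in wild type, Cxcr2 (1.60), Mmp9 (1.29), Retnlg (1.22) and Prtn3 (1.20) were called higher, beside 1.17% of all genes. Between genotypes Cxcr2 was called lower in the labelled knockout with heme (-1.22), beside 0.973% of all genes, and Retnlg higher with vehicle (1.36), beside 0.525%. Cxcr2 and Prtn3 were called lower on the difference between heme responses, beside 0.879%. Prtn3 was under the level in wild type with vehicle (21.2). Of 10 mast cell and basophil markers 1, Hdc, reached the level on any array, at 32.3 in the labelled knockout with vehicle. None of 9 B, T and NK cell markers did, and 4 of 8 fibroblast and endothelial markers did, with signals up to 66.7. Of these, Kdr was called lower in the labelled knockout with vehicle (-1.04), beside 1.14% of all genes. Kdr reached the level on the wild-type vehicle array alone (48.4).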

How the data were processed

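Expression was measured on a mouse whole-transcript array in 4 samples, 1 per group. Per the labels, total RNA came from RNeasy columns, biotin-labelled cRNA was made with an Ovation PicoSL kit, and RMA was run by the authors before deposit. The deposited values are linear intensity, between 2.12 and 16004, and they carry no detection call. The series' design text describes sorted fetal liver progenitors and another RNA kit, which do not match the sample labels; the labels were followed.

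Values were taken to log2 with no scaling added. Of 35556 probe sets, 21789 had a single gene symbol, updated through the Entrez number (21698 matched) to RefSeq names of assembly GRCm38.p6. The brightest probe set stood for each of 19938 genes. Differences of log2 signals between arrays were described with no test; calls needed 2-fold and a signal of 30.96 on the brighter array (the brightest of 4 for the difference between heme responses). The members and the 15 other gene lists were chosen with earlier results of these data known. Of 181 list entries, 3 were not analysed here. Named are all members, the called genes of each list or otherwise up to 2 with the largest difference, and 5 nearest profiles for members spanning 2-fold; single genes named beyond these were chosen after their values were seen. The calling code was run on simulated data, with 3-fold changes added at genes above the level and 1 noise size for all genes. That run does not show how calls behave at dim genes. Alternatives were 1.5-fold and 3-fold rules, no level filter or one at the 75th percentile, repeated quantile normalization, lowess centring, 32 added to each signal and averaging probe sets per gene. Analyses ran in Python 3.11.15 with pandas 2.3.3, numpy 2.4.6 and, for lowess, statsmodels 0.14.6; figures were drawn with matplotlib 3.10.9.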

Additional observations from a re-analysis of the deposited data

Results flagged for a closer look

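For 5 members the heme response pointed in opposite directions in the labelled knockout and in wild type; with 1 array per group the difference was not tested. The response in the labelled knockout minus that in wild type was -1.17 on the log2 scale at Nr4a3, and -0.61 with 32 added to each signal. The Nr4a3 response in the labelled knockout alone compares 14.5 with 21.5, both under the level, and shrank to -0.20, within the robust SD, with 32 added. At the other 4 at least 1 of the responses was within the robust SD. Their difference between responses was 0.40 at Nr4a1, -0.35 at Fosb, -0.29 at Nr4a2 and 0.22 at Junb. After repeated quantile normalization the response of Nr4a1 in the labelled knockout was -0.0048, and after lowess centring that of Nr4a2 in the labelled knockout was 0.0078 and that of Junb in wild type 0.00033, so that their responses no longer opposed.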

How the results depend on the processing

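No paired analysis was possible because each group holds 1 array. Of 200 recomputed member differences (10 members, 5 comparisons, 4 alternatives), 194 moved by less than the robust SD, and the 6 that moved by more, at Nr4a3 and Fosb, did so with 32 added to each signal; no called difference turned its sign. At 1.5-fold, 1 member was higher and 1 lower with heme in the labelled knockout, 2 and 1 in wild type (0 and 0 at 2-fold in both), 2 and 4 between genotypes with heme (0 and 1), and 5 lower with vehicle (2). At 3-fold and with 32 added, 0 members were called higher or lower between genotypes in vehicle and 0 lower on the difference between heme responses, while Nr4a3 stayed called between genotypes with heme. The filter at the 75th percentile, above the brightest Nr4a3 and Fosb signals, left 0 members lower between genotypes with heme, 1 lower and 0 higher in vehicle, and 0 lower on the difference between heme responses. Repeated quantile normalization and lowess centring left 1 lower in vehicle, without Egr2. Chosen after seeing the data, a gap over the robust SD left 3 members separated below in the labelled knockout in place of 7. Over all genes, the counts called (heme in the labelled knockout, heme in wild type, genotype with heme, genotype with vehicle, difference between responses) were 179, 222, 161, 181 and 228; they were 878, 1046, 735, 821 and 1273 at 1.5-fold, 27, 49, 33, 44 and 33 at 3-fold, 116, 137, 88, 103 and 56 with the filter at the 75th percentile, and 72, 87, 61, 72 and 34 with 32 added. With no level filter the last was 366. Signal over background is unknown, which limits Nr4a2 and Nr4a3 most.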
